A study of Mus musculus with 23 samples.

Results

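RNA sequencing read counts of the epididymal fat pad were compared between 4 mice carrying a KPC IL6KO pancreatic tumor and 4 mice with no tumor, which are 8 of the 23 libraries of the study. The libraries were chosen by their sample titles, with 1 library per mouse, and are called by group and replicate number (KPC IL6KO 5 to 8 and no tumor 5 to 8). All mice were male C57BL/6J, 8 weeks old at surgery. No tumor mice had sham surgery. KPC IL6KO mice received an orthotopic injection of tumor cells into the pancreas. The KPC line was grown from a pancreatic tumor arising in a male mouse in which a Pdx1-Cre transgene switched on mutant alleles, Trp53 among them. KPC IL6KO is 1 clone of that line with Il6 edited by CRISPR/Cas9, and the recipient mice kept an intact Il6 gene. Another 4 mice carried tumors of a control clone of the same line that was transfected without guide RNA (KPC), and their fat pads entered the same fit. All groups were euthanized together, when 1 of them reached the endpoint for weight or fat loss. The question addressed by the comparison is what a pancreatic tumor whose own cells make no IL-6 leaves changed in fat.

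White fat stores triglyceride in adipocytes and holds resident macrophages, preadipocytes, vessels and a mesothelial cover. IL-6 binds its receptor together with gp130 (Il6st), which activates JAK kinases and the transcription factor STAT3, and STAT3 in turn induces its own inhibitor SOCS3. In liver and fat the same cytokine family induces acute phase proteins, the plasma proteins whose synthesis rises in inflammation, and in wasting disease fat loses triglyceride by lipolysis. The epididymal pad lies against the epididymis, the vas deferens and the seminal vesicles, and lists of genes of these organs and of skeletal muscle, which are not complete, are reported apart from the other lists.

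Counts per library summed to 28769074 to 56308545 in no tumor and 30662726 to 39946266 in KPC IL6KO, over 16962 genes. Levels are given in CPM, read counts divided by the TMM-adjusted size of their library. A level of 3 counts or fewer, which is 0.0474 to 0.123 CPM depending on the fat library, was treated as no different from 0. Adipoq, which encodes the adipocyte hormone adiponectin, was detected in every library and measured 446, 2830, 123 and 991 CPM in no tumor 5 to 8 and 387, 492, 1649 and 682 CPM in KPC IL6KO 5 to 8. The 77 epididymis genes in the table took 12.4%, 1.77%, 11.6% and 3.48% of the counts of no tumor 5 to 8 and 0.0930%, 12.3%, 2.93% and 1.44% of those of KPC IL6KO 5 to 8. These shares differed by over 100 times within KPC IL6KO and crossed the groups. The listed genes of the seminal vesicle and accessory glands took 9.22%, 0.0450%, 0.0291% and 0.00887% in KPC IL6KO 5 to 8 and at most 0.0379% in no tumor. KPC IL6KO 5 stood alone in these listed genes. Skeletal muscle genes took 0.0199%, 0.0336%, 0.0812% and 0.502% in KPC IL6KO 5 to 8 and 0.00445% to 0.0575% in no tumor. KPC IL6KO 8 also held 2279 CPM of Tgm4 and 8578 CPM of 9530053A07Rik, at most 2.98 and 9.98 CPM in the other libraries compared. Neither gene is in the lists used here, so the shares above, that of the accessory glands among them, leave both out. KPC IL6KO 6 held 283 CPM of Alb, 27.8 CPM of Ahsg and 26.7 CPM of Apoa1, which encode plasma proteins made mainly by the liver, against at most 13.8, 1.93 and 1.75 CPM in the other libraries compared. These 5 genes were singled out after their values were seen. KPC IL6KO 5, 6 and 8 therefore each stood apart in genes of another tissue, and values without 1 library are given for the results that moved most.

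**Figure D1:**
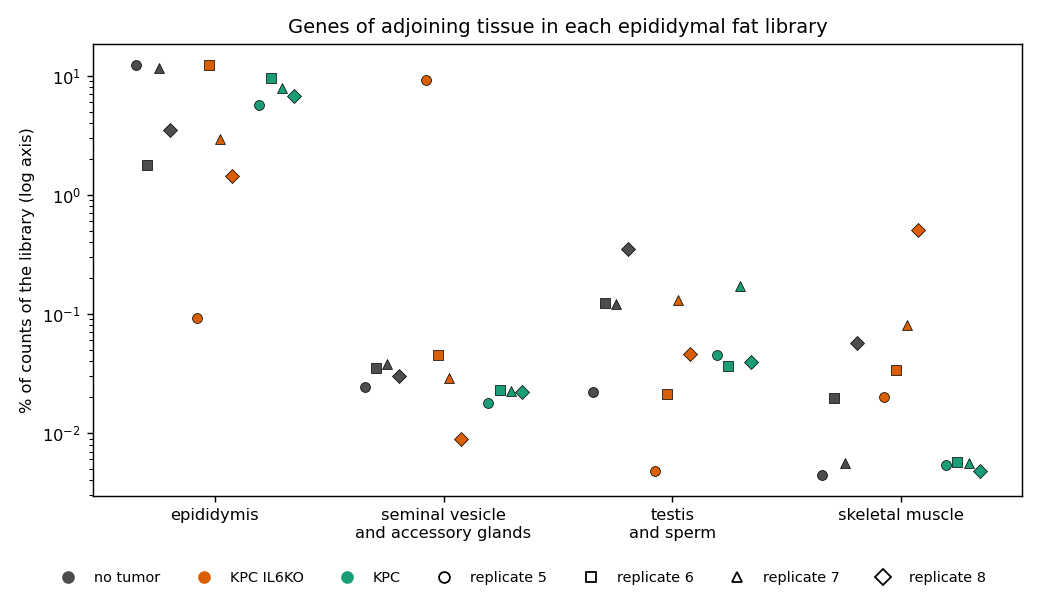
Share of each library's counts (%, log axis) taken by genes of adjoining tissue, by group (color) and replicate number (shape), for all 12 fat libraries. KPC IL6KO 5 sits at 9.22% for seminal vesicle genes and 0.0930% for epididymis genes, and KPC IL6KO 6 at 12.3% for epididymis genes.

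Across all genes, no gene passed the quasi-likelihood test of edgeR at an FDR of at most 0.05 and a fold change (FC) of at least 1.5, which is 0% of the 16962 genes tested. The smallest FDR was 0.235. An unadjusted p under 0.05 was reached by 1385 genes that were higher in KPC IL6KO (8.17% of those tested) and by 199 that were lower (1.17%), and the median log2 FC of all genes was -0.03. The edgeR likelihood ratio test, which takes no account of the uncertainty of each gene's spread, called 209 genes higher (1.23%) and 0 lower, and the Wald test of DESeq2 called 282 higher and 4 lower. The 4 lower ones, named for completeness, were Dcun1d4, Dbndd1, Scrt2 and Vmn2r1. CPM of all 4 KPC IL6KO libraries lay above all 4 no tumor libraries for 258 genes (1.52%) and below them for 83 (0.489%). The spread between mice of a group was large, with a biological coefficient of variation of 63.5%. With KPC IL6KO 6 left out, 12 genes passed the quasi-likelihood thresholds as higher (Itih4, Socs3, Ccl8, S100a9, Timp1, Nfasc, Creb3l1, Bcl3, Sbno2, Fcgr1, Trem2 and Pik3r5) and 1 lower (Cyp4f15, which is listed at 38.3 CPM in KPC IL6KO 6 and between 2.54 and 2.63 CPM in the other KPC IL6KO libraries). Genes with an unadjusted p under 0.05 then numbered 3393, against 802 without KPC IL6KO 5 and 978 without KPC IL6KO 8.

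Genes of the acute phase response were among those with the highest levels relative to no tumor. Of 23 acute phase genes in the table, 20 had a higher and 3 a lower fitted level in KPC IL6KO, with a median log2 FC of 2.38 against -0.03 over all genes. In this list 12 genes were higher at an unadjusted p under 0.05, 0 were lower, 9 were called by the likelihood ratio test and 8 did not overlap between groups. Among all genes 8.17% were higher and 1.17% lower at that p, 1.23% were called higher and 1.52% were higher without overlap. These shares are the background for the counts of every list. Itih4 (chromosome 14, 30886476 to 30902353), an inter-alpha-trypsin inhibitor heavy chain found in plasma, measured 0.655, 1.83, 0.395 and 1.72 CPM in no tumor 5 to 8 and 25.99, 21.4, 20.4 and 22.1 CPM in KPC IL6KO 5 to 8. The KPC IL6KO libraries were close to each other and more than 10 times as high as the highest no tumor library. For Itih4 the log2 FC was 4.28 (SE 0.58), with the smallest FDR of the whole table in the quasi-likelihood test (0.235) and an FDR of 4.71e-08 in the likelihood ratio test, and it was 4.30 without KPC IL6KO 6. Saa3 (chromosome 7, 46711998 to 46715700), the serum amyloid A form made in fat and macrophages, measured 3.11, 5.81, 1.53 and 2.61 CPM in no tumor 5 to 8 and 113, 13.1, 35.1 and 850.3 CPM in KPC IL6KO 5 to 8. All KPC IL6KO libraries were higher, but they spanned from 13.1 to 850.3 CPM, and KPC IL6KO 6 was the lowest. For Saa3 the log2 FC was 6.28 (SE 1.24) (quasi-likelihood FDR 0.385, likelihood ratio FDR 0.000212), and without KPC IL6KO 8 it was 4.05. Saa2, a serum amyloid A gene of the liver, had 2 counts in all no tumor libraries together and measured 0.638, 8.85, 1.87 and 1.74 CPM in KPC IL6KO 5 to 8, here with the highest level in KPC IL6KO 6.

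Haptoglobin, encoded by Hp (chromosome 8, 109575128 to 109579172), binds free hemoglobin and was the most abundant gene of the acute phase list. Hp measured 556, 1276, 248 and 536 CPM in no tumor 5 to 8 and 2156, 1785, 5941 and 6082 CPM in KPC IL6KO 5 to 8, without overlap, for a log2 FC of 2.61 (SE 0.67) (quasi-likelihood FDR 0.385, likelihood ratio FDR 0.0191). Serpina3m (chromosome 12, 104338486 to 104394257), a serine protease inhibitor with near-identical neighbors in its cluster between which reads can be split, measured 0.491, 2.01, 0.558 and 1.26 CPM in no tumor 5 to 8 and 9.45, 11.2, 26.2 and 39.03 CPM in KPC IL6KO 5 to 8. For Serpina3m the log2 FC was 4.31 (SE 0.98). F10, which encodes coagulation factor X, measured 0.737, 1.90, 0.302 and 1.47 CPM in no tumor 5 to 8 and 10.1, 2.43, 2.73 and 97.2 CPM in KPC IL6KO 5 to 8. Its level was highest in KPC IL6KO 8 and near that of no tumor 6 in KPC IL6KO 6 and 7, and its log2 FC of 4.67 (SE 1.21) became 2.20 without KPC IL6KO 8. Ptx3, a long pentraxin that recognizes microbes, measured 1.35, 0.692, 0.744 and 0.585 CPM in no tumor 5 to 8 and 8.32, 2.30, 3.45 and 28.1 CPM in KPC IL6KO 5 to 8. For Ptx3 the log2 FC was 3.65 (SE 0.76), and 2.48 without KPC IL6KO 8. Orm1, which encodes the plasma protein orosomucoid 1, was the lowest of the list with a log2 FC of -1.20 (SE 0.95) (0.22 without no tumor 6), and its CPM of 11.1, 152, 4.79 and 43.3 in no tumor overlapped the 8.10, 19.6, 52.8 and 11.6 of KPC IL6KO. The summed level of the acute phase list was 6412, 3040, 4111 and 1313 CPM in no tumor 5 to 8 and 4170, 7457, 8784 and 9255 CPM in KPC IL6KO 5 to 8, so that KPC IL6KO 5 lay within the no tumor range. Lcn2, which encodes the iron-binding protein lipocalin 2, made up most of this sum in no tumor 5, no tumor 7 and KPC IL6KO 6, the libraries with the highest Gpx5, and measured 5112, 63.1, 3355 and 79.3 CPM in no tumor 5 to 8 and 49.6, 4437, 81.7 and 87.1 CPM in KPC IL6KO 5 to 8. The median log2 FC of the list without KPC IL6KO 6, the library with the albumin transcripts, was 1.32.

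**Figure D2:**
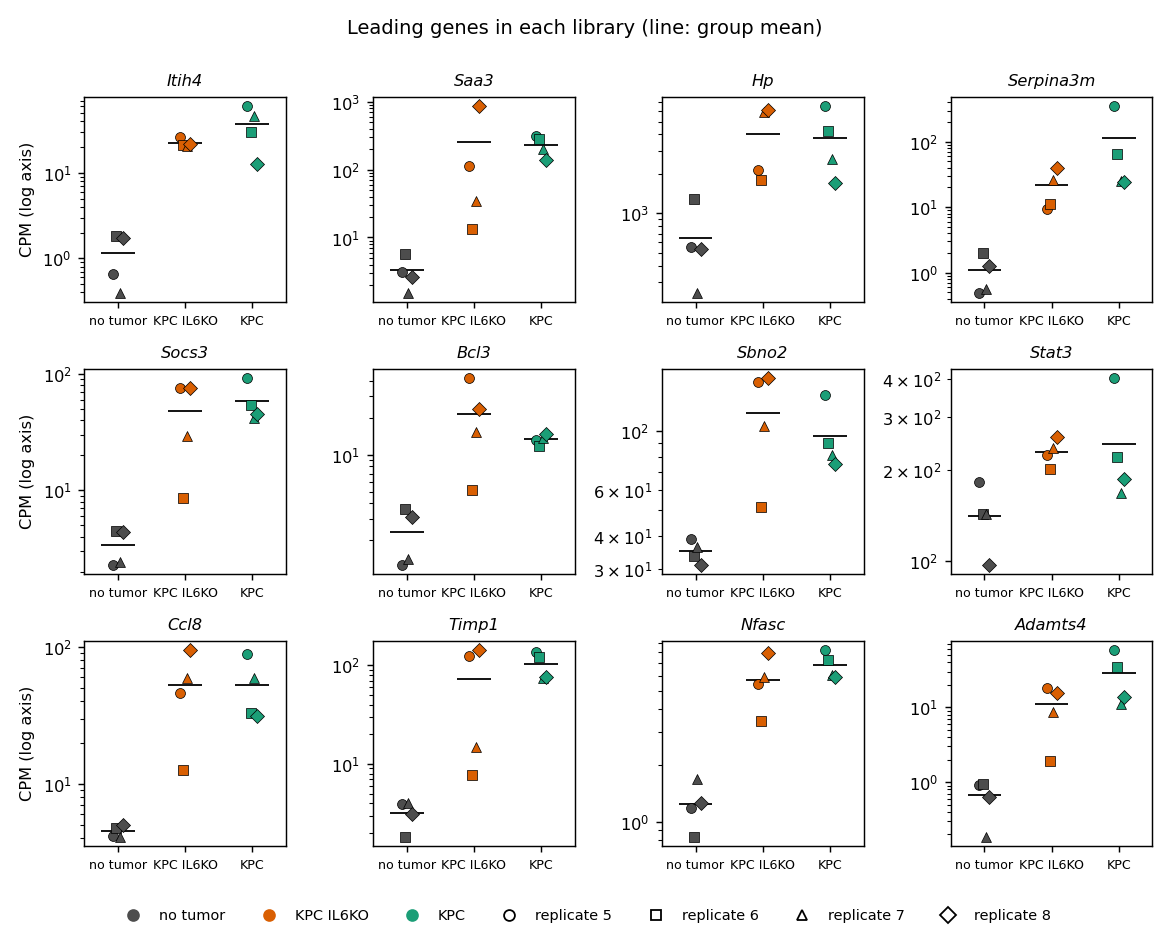
CPM (log axis) of 12 genes named in the text in each fat library of no tumor, KPC IL6KO and KPC mice, with the group mean as a line and the replicate number as the shape of the point. Itih4 lies between 20.4 and 25.99 CPM in all KPC IL6KO libraries, whereas Saa3, Socs3, Timp1 and Bcl3 are lowest in KPC IL6KO 6.

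Among genes of the IL-6 family and the JAK-STAT pathway, the highest log2 FC were those of the ligand genes Il6 and Osm (4.51) and of the induced genes Socs3 and Bcl3. Those of the receptor genes ran from -0.04 for Lifr to 0.99 for Osmr. Of the 28 genes, 25 had a higher and 3 a lower fitted level, with a median log2 FC of 0.64. Of these, 10 were higher at an unadjusted p under 0.05, 0 were lower, 4 were called by the likelihood ratio test and 4 did not overlap. The shares among all genes were 8.17%, 1.17%, 1.23% and, for higher without overlap, 1.52%. Il6 (chromosome 5, 30013114 to 30019981) itself, the ligand, measured 0, 0, 0.0232 and 0.0632 CPM in no tumor 5 to 8 and 4.66, 0.0343, 0.267 and 4.77 CPM in KPC IL6KO 5 to 8. KPC IL6KO 5 and 8 stood more than 10 times above the other KPC IL6KO libraries, KPC IL6KO 6 lay within the no tumor range, and no tumor held 5 counts in all. These reads come from whole fat pads of mice with intact Il6, so they do not check the edit of the tumor cells. The receptor gene Il6ra measured 19.9, 21.8, 14.4 and 12.8 CPM in no tumor 5 to 8 and 19.2, 25.4, 22.5 and 26.4 CPM in KPC IL6KO 5 to 8, with a log2 FC of 0.44 (SE 0.22). Il6st, the signaling subunit and the most abundant gene of the list, measured 152, 300.4, 113 and 222 CPM in no tumor 5 to 8 and 294, 164, 303 and 346 CPM in KPC IL6KO 5 to 8, with a log2 FC of 0.49 (SE 0.34). In both of these genes the groups overlapped, and their quasi-likelihood FDR was 0.579 and 0.663.

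Stat3 (chromosome 11, 100885098 to 100939540), the transcription factor of the pathway, measured 182, 143, 143 and 97.2 CPM in no tumor 5 to 8 and 225, 202, 237 and 257 CPM in KPC IL6KO 5 to 8. All KPC IL6KO libraries were higher, and for Stat3 the log2 FC was 0.70 (SE 0.28) at an FDR of 0.492. Socs3 (chromosome 11, 117966079 to 117970047), the inhibitor, measured 2.29, 4.43, 2.42 and 4.41 CPM in no tumor 5 to 8 and 75.8, 8.61, 29.4 and 75.8 CPM in KPC IL6KO 5 to 8. KPC IL6KO 6 was under 2 times the highest no tumor library and the others were over 6 times it. For Socs3 the log2 FC was 3.80 (SE 0.63) (quasi-likelihood FDR 0.325, likelihood ratio FDR 1.53e-05) and 4.15 without KPC IL6KO 6. Bcl3 (chromosome 7, 19808462 to 19822770), a nuclear cofactor of NF-kappaB, measured 1.27, 3.60, 1.42 and 3.13 CPM in no tumor 5 to 8 and 41.6, 5.18, 15.1 and 23.3 CPM in KPC IL6KO 5 to 8. For Bcl3 the log2 FC was 3.18 (SE 0.58). Sbno2, a transcriptional coregulator, measured 38.96, 33.6, 36.1 and 31.03 CPM in no tumor 5 to 8 and 154, 51.6, 105 and 159 CPM in KPC IL6KO 5 to 8, with a log2 FC of 1.75 (SE 0.32) and KPC IL6KO 6 again the lowest of its group. Ctf1, which encodes the IL-6 family cytokine cardiotrophin 1, was the lowest of the list with a log2 FC of -0.40 (SE 0.48) (-1.02 without KPC IL6KO 6), and its 16.01 CPM in KPC IL6KO 6 stood against 4.49 to 5.55 CPM in the other KPC IL6KO libraries.

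The 250 bases upstream of the start site of the 10 genes with the smallest p among those with a mean log2 CPM not under 1 and outside the lists of adjoining tissue, and of Stat3, Il6, Saa2 and Hp, were read from the RefSeq promoter table (GRCm38.p6), which held 12 of these 14 genes (Adamts4 and Hp had no entry). The start site is the one that this table gives, and the windows of Socs3, Nfasc and Sbno2 lie inside the gene spans used for positions here, so that for these genes bases upstream of the outermost start were not searched. They were searched on both strands for a STAT dimer motif (TTCCNGGAA), a C/EBP motif (TTGCNNAA) and an NF-kappaB motif (GGNNTTTCC), because the genes share higher levels in KPC IL6KO and these factors act downstream of IL-6 and IL-1. The STAT letters were in 0 of the 12 windows and in 0.914% of 27025 windows of the whole table, 1 per gene. The C/EBP letters were in 4 of 12 (Saa3, Saa2, Dmkn and Il6) and in 9.55% of all, and the NF-kappaB letters in 3 of 12 (Saa3, Bcl3 and Il6) and in 4.84% of all. No copy overlapped another. A match describes the letters only. The windows of Saa3 and Il6, which hold matches, and of Itih4, the gene with the smallest p, are shown 5′ to 3′, with the matched letters in capitals (the NF-kappaB match comes first in Saa3 and second in Il6).
Saa3 (chr7:46715677-46715926, minus strand): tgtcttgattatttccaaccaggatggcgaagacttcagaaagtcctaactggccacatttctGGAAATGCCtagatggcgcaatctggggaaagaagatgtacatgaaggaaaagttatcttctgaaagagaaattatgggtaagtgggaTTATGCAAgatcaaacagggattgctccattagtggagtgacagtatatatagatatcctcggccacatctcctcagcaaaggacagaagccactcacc
Il6 (chr5:30012864-30013113, plus strand): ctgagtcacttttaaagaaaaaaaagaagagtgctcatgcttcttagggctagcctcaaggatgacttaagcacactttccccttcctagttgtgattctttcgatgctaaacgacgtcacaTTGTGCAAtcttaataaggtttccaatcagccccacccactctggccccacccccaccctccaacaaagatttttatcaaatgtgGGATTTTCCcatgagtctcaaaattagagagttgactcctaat
Itih4 (chr14:30886226-30886475, plus strand): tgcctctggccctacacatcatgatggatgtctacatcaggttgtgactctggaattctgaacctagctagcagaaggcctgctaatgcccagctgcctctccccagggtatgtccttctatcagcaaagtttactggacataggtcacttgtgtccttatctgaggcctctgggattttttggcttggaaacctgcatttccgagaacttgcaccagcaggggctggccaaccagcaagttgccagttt

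Most neutrophil and macrophage genes had higher fitted levels in KPC IL6KO, with KPC IL6KO 6 the library nearest to no tumor in the macrophage genes. Of 12 neutrophil genes in the table, 11 had a higher and 1 a lower fitted level (median log2 FC 2.98, and 1.78 without KPC IL6KO 8). At an unadjusted p under 0.05, 8 were higher and 0 lower, and 6 were called by the likelihood ratio test, against 8.17%, 1.17% and 1.23% of all genes. Trem1, a receptor that amplifies inflammatory responses of neutrophils and monocytes, measured 0.0819, 0.0692, 0.0697 and 0.427 CPM in no tumor 5 to 8 and 5.96, 0.171, 1.84 and 29.04 CPM in KPC IL6KO 5 to 8. For Trem1 the log2 FC was 5.74 (SE 1.35), and 3.95 without KPC IL6KO 8. Its level in KPC IL6KO 6 lay within the no tumor range, and the other KPC IL6KO libraries were above it. S100a9, a subunit of calprotectin that was singled out because it was called without KPC IL6KO 6, measured 0.409, 0.104, 0.0465 and 0.206 CPM in no tumor 5 to 8 and 7.88, 0.823, 3.39 and 10.9 CPM in KPC IL6KO 5 to 8, without overlap. Hdc, which encodes the enzyme that makes histamine and is in both the neutrophil and the mast cell list, measured 5.32, 4.32, 5.42 and 5.94 CPM in no tumor 5 to 8 and 16.7, 12.3, 13.4 and 20.5 CPM in KPC IL6KO 5 to 8, with a log2 FC of 1.58 (SE 0.47) and no overlap. Ltf, which encodes lactoferrin, was the most abundant gene of the list and the only lower one, and at 2.33, 759, 138 and 365 CPM in no tumor 5 to 8 and 19.8, 0.0686, 382 and 80.1 CPM in KPC IL6KO 5 to 8 it varied over 300 times within each group. Lactoferrin is also made by the epididymis, and the part of that tissue in these values was not tested. Ltf made up most of the summed level of the list where it measured 138 CPM or more and a minor part elsewhere. The sum was 16.98, 781, 149 and 388 CPM in no tumor 5 to 8. In KPC IL6KO 5 to 8 it was 109, 23.7, 427 and 279 CPM, and the groups overlapped.

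Of 22 macrophage genes, 21 had a higher and 1 a lower fitted level (median log2 FC 1.57). At an unadjusted p under 0.05, 18 of them were higher and 0 lower, and 5 were called by the likelihood ratio test, against 8.17%, 1.17% and 1.23% of all genes. The summed level of the macrophage genes was 677, 1501, 448 and 743 CPM in no tumor 5 to 8 and 7484, 739, 1984 and 5172 CPM in KPC IL6KO 5 to 8. In KPC IL6KO 6 it lay within the no tumor range, and 21 of the 22 genes were within or below that range in this library. Spp1, which encodes osteopontin, a secreted protein of lipid-laden macrophages and of many epithelia, was the most abundant gene of the list and measured 68.1, 1.66, 6.51 and 0.838 CPM in no tumor 5 to 8 and 5364, 12.5, 147 and 871 CPM in KPC IL6KO 5 to 8. For Spp1 the log2 FC was 6.38 (SE 1.98) (quasi-likelihood FDR 0.396), 4.16 without KPC IL6KO 5 and 9.05 without no tumor 5. Gpnmb, a membrane glycoprotein of the same cells, had a log2 FC of -0.83 (SE 0.71) (-2.01 without KPC IL6KO 6), with 147.9 CPM in KPC IL6KO 6 against 19.7 to 26.8 CPM in the others of its group. In bulk tissue more cells of a type and more RNA per cell cannot be told apart, which holds for every cell type list here.

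Of 31 cytokine and chemokine genes, 28 had a higher and 3 a lower fitted level (median log2 FC 1.57). At an unadjusted p under 0.05, 18 were higher and 0 lower, and 8 were called by the likelihood ratio test, against 8.17%, 1.17% and 1.23% of all genes. Ccl8 (chromosome 11, 82115185 to 82116799), a chemokine that draws monocytes, measured 4.17, 4.77, 4.12 and 4.98 CPM in no tumor 5 to 8 and 46.1, 12.6, 59.2 and 94.3 CPM in KPC IL6KO 5 to 8. No tumor libraries lay within 1 CPM of each other and all KPC IL6KO libraries were over 2 times higher. For Ccl8 the log2 FC was 3.55 (SE 0.55) (quasi-likelihood FDR 0.313, likelihood ratio FDR 4.95e-06). Ccl6, the most abundant chemokine of the list, measured 28.04, 85.6, 13.1 and 32.4 CPM in no tumor 5 to 8 and 272, 54.7, 264 and 862 CPM in KPC IL6KO 5 to 8, with a log2 FC of 3.19 (SE 0.79) (2.31 without KPC IL6KO 8) and with KPC IL6KO 6 inside the no tumor range. Cxcl5, a neutrophil chemoattractant, measured 0.573, 0.104, 0.0930 and 0.190 CPM in no tumor 5 to 8 and 23.95, 0.103, 2.79 and 8.59 CPM in KPC IL6KO 5 to 8, again with KPC IL6KO 6 at the level of no tumor and a log2 FC of 5.23 (SE 1.31) that became 4.02 without KPC IL6KO 5. Cxcl9, a chemokine induced by interferon gamma, was the lowest with a log2 FC of -0.92 (SE 0.79) (0.16 without no tumor 6), and its groups overlapped.

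All 18 complement genes had a higher fitted level (median log2 FC 1.14, and 0.68 without KPC IL6KO 8). Of them 8 were higher at an unadjusted p under 0.05, and 0 were called by the likelihood ratio test, against 8.17% and 1.23% of all genes. C3, the central complement protein, measured 244, 961, 175 and 813 CPM in no tumor 5 to 8 and 1970, 637, 3075 and 3348 CPM in KPC IL6KO 5 to 8. For C3 the log2 FC was 2.04 (SE 0.65). KPC IL6KO 6 lay below no tumor 6 and 8. C1s2, a serine protease gene of the complement cluster, had the highest log2 FC of the list, 2.49 (SE 1.35), from 123 CPM in KPC IL6KO 8, and without that library it was 0.25. C2, a component of the classical pathway, was the lowest of the list with a log2 FC of 0.03 (SE 0.74) (1.06 without no tumor 6).

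Interferon response and lymphocyte lists had medians nearer to that of all genes. Among all genes 8.17% were higher and 1.17% lower at an unadjusted p under 0.05, and 1.23% were called higher by the likelihood ratio test. The 25 interferon response genes had a median log2 FC of 0.29, with 4 higher and 0 lower at an unadjusted p under 0.05 and 1 called by the likelihood ratio test, Zbp1. Zbp1, a sensor of nucleic acids, measured 3.07, 4.26, 2.02 and 2.37 CPM in no tumor 5 to 8 and 11.4, 3.43, 14.7 and 19.3 CPM in KPC IL6KO 5 to 8, with KPC IL6KO 6 inside the no tumor range and a log2 FC of 2.06 (SE 0.49). The 16 T and NK cell genes had a median log2 FC of 0.11. At an unadjusted p under 0.05, 1 was higher (Cd4, the T helper coreceptor, log2 FC 1.20 (SE 0.52)) and 0 were lower. Klrb1c, an NK cell receptor gene, measured 648, 2.39, 328 and 1.69 CPM in no tumor 5 to 8 and 1.06, 481, 1.25 and 0.886 CPM in KPC IL6KO 5 to 8. It was high in no tumor 5, no tumor 7 and KPC IL6KO 6, the libraries in which the epididymis gene Gpx5 was above 1000 CPM. The 9 B and plasma cell genes had a median log2 FC of -0.21 (0.29 without no tumor 6), with 2 higher and 0 lower at an unadjusted p under 0.05. Jchain, the joining chain of secreted antibodies, measured 3.52, 10.6, 1.86 and 9.14 CPM in no tumor 5 to 8 and 44.6, 6.79, 26.03 and 27.3 CPM in KPC IL6KO 5 to 8. For Jchain the log2 FC was 2.06 (SE 0.64). The B cell gene Ms4a1 had a log2 FC of -1.34 (SE 0.86) (-0.67 without no tumor 6). Of 11 dendritic cell genes 4 were higher and 0 lower at an unadjusted p under 0.05 (median log2 FC 1.08). Ccr7, the receptor that guides these cells to lymph nodes, had a log2 FC of 2.00 (SE 0.73) (1.28 without KPC IL6KO 5). Clec10a, the most abundant of the list, had 1.61 (SE 0.72) (2.29 without no tumor 6) and Siglech had -1.09 (SE 0.93). Of 9 mast cell genes 2 were higher and 0 lower (median 0.63, 0.21 without KPC IL6KO 8 and 1.10 without no tumor 8). Among them were Hdc at 1.58, the mast cell growth factor receptor Kit at -0.41 (SE 0.48) (-1.03 without KPC IL6KO 6) and the transcription factor Gata2 at 0.59 (SE 0.78).

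**Figure D3:**
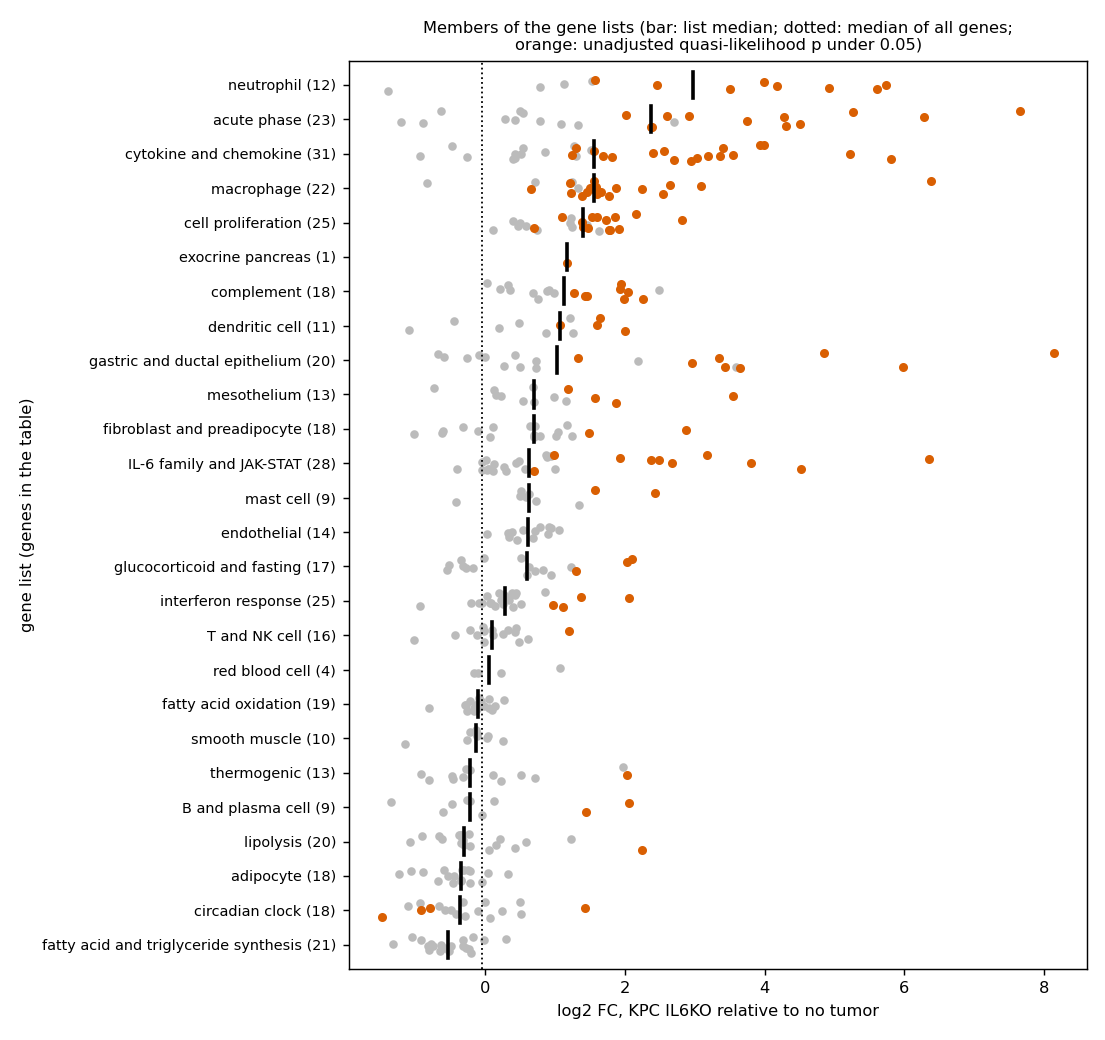
The log2 FC of KPC IL6KO relative to no tumor for the members of 26 gene lists (adjoining tissue left out), with the list median as a bar, the median of all genes as a dotted line and members with an unadjusted quasi-likelihood p under 0.05 in orange. Values of genes with no more than 3 counts in each no tumor library, such as Saa2 and Pdx1, depend on the prior count. The medians run from 2.98 for neutrophil genes to -0.53 for fatty acid and triglyceride synthesis.

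**Figure D4:**
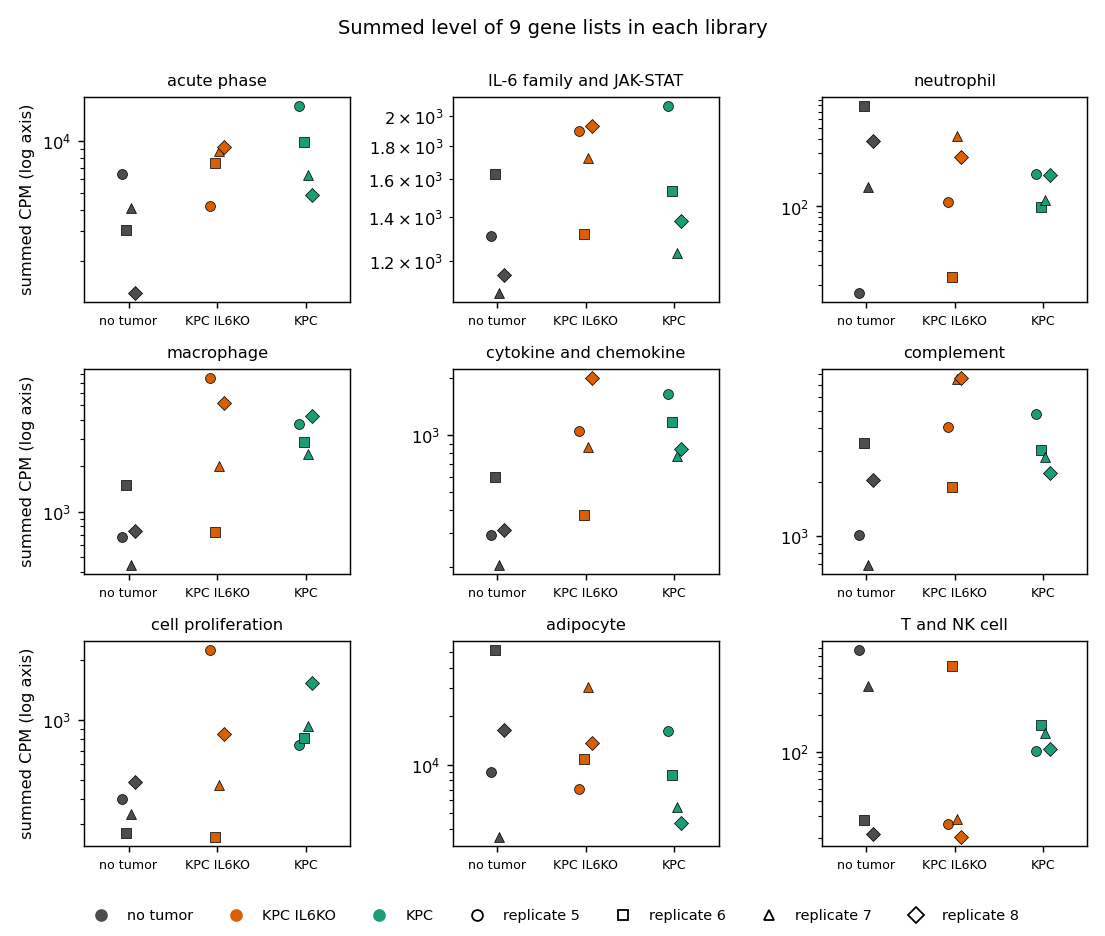
Summed CPM (log axis) of 9 gene lists in each fat library, by group and replicate number. KPC IL6KO 6 lies within the no tumor range for macrophage genes (739 CPM) and cytokine genes (377 CPM), and the adipocyte sum overlaps between no tumor and KPC IL6KO.

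Timp1, Adamts4 and Nfasc, genes of matrix turnover and cell adhesion, were higher in every KPC IL6KO library than in any no tumor library. Timp1 (chromosome X, 20870166 to 20874735), an inhibitor of matrix metalloproteinases, measured 3.93, 1.83, 4.00 and 3.13 CPM in no tumor 5 to 8 and 125, 7.82, 14.8 and 141 CPM in KPC IL6KO 5 to 8. KPC IL6KO 5 and 8 were over 8 times KPC IL6KO 6 and 7, which in turn were above all no tumor libraries. For Timp1 the log2 FC was 4.49 (SE 0.86) (quasi-likelihood FDR 0.385, likelihood ratio FDR 0.000212). Adamts4 (chromosome 1, 171250421 to 171260637), a protease that cleaves aggrecan, measured 0.900, 0.934, 0.186 and 0.632 CPM in no tumor 5 to 8 and 17.96, 1.92, 8.77 and 15.4 CPM in KPC IL6KO 5 to 8. For Adamts4 the log2 FC was 4.06 (SE 0.82). Nfasc (chromosome 1, 132564690 to 132741797), a cell adhesion molecule of nerve fibers, measured 1.19, 0.830, 1.70 and 1.25 CPM in no tumor 5 to 8 and 5.42, 3.46, 5.91 and 7.92 CPM in KPC IL6KO 5 to 8, and its log2 FC of 2.19 (SE 0.35) had the smallest standard error of these 3. Dmkn, a secreted protein of epithelia, measured 3.77, 2.80, 3.14 and 2.99 CPM in no tumor 5 to 8 and 11.3, 5.35, 8.11 and 15.2 CPM in KPC IL6KO 5 to 8. For Dmkn the log2 FC was 1.65 (SE 0.34). Of 18 fibroblast and preadipocyte genes 13 had a higher and 5 a lower fitted level (median log2 FC 0.70). This median was 1.23 without no tumor 6, 0.40 without KPC IL6KO 5 and 0.04 at the lowest of the alternatives. At an unadjusted p under 0.05, 2 of the 18 were higher and 0 lower, against 8.17% and 1.17% of all genes. Fn1, which encodes fibronectin, measured 93.6, 378, 49.6 and 298 CPM in no tumor 5 to 8 and 2150, 107, 715 and 3025 CPM in KPC IL6KO 5 to 8, with a log2 FC of 2.87 (SE 0.90) (2.28 without KPC IL6KO 8). Col3a1, the most abundant of the list, had a log2 FC of 1.25 (SE 0.66), and 0.17 at the lowest of the processing alternatives given below. Pi16, a marker of progenitors in the reticular interstitium, had -0.61 (SE 0.66). All 14 endothelial genes had a higher fitted level (median log2 FC 0.62, 1.27 without no tumor 6 and -0.04 with Gpx5 and Crisp1 as covariates) and 0 reached an unadjusted p under 0.05. Pecam1, the most abundant endothelial gene, measured 50.9, 157, 23.9 and 63.8 CPM in no tumor 5 to 8 and 81.1, 66.5, 182 and 181 CPM in KPC IL6KO 5 to 8, and the values of the groups overlapped.

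Cell cycle genes were highest in KPC IL6KO 5. All 25 proliferation genes had a higher fitted level (median log2 FC 1.40). Of them 14 were higher at an unadjusted p under 0.05, and 1, Ccna2, was called by the likelihood ratio test, against 8.17% and 1.23% of all genes. Mki67, the Ki-67 antigen of cycling cells, measured 44.2, 14.4, 27.6 and 21.1 CPM in no tumor 5 to 8 and 324, 16.4, 40.3 and 101 CPM in KPC IL6KO 5 to 8. KPC IL6KO 6 and 7 lay within the no tumor range. For Mki67 the log2 FC was 2.17 (SE 0.77) and 0.97 without KPC IL6KO 5, and the median of the list without that library was 0.46. Ccna2, which encodes cyclin A2, measured 10.5, 6.05, 5.56 and 5.77 CPM in no tumor 5 to 8 and 128, 4.35, 15.7 and 47.8 CPM in KPC IL6KO 5 to 8. For Ccna2 the log2 FC was 2.81 (SE 0.83) (1.70 without KPC IL6KO 5).

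Epithelial transcripts differed between the same libraries. Of 20 genes of gastric and ductal epithelium in the table, 16 had a higher and 4 a lower fitted level. At an unadjusted p under 0.05, 8 were higher and 0 lower, and 2 were called by the likelihood ratio test, against 8.17%, 1.17% and 1.23% of all genes. The median log2 FC of the 20 genes was 1.03, and 0.73 with genes at the floor set to their bound. Pdx1, a transcription factor of pancreas and duodenum, had 3 counts in no tumor in all, in no tumor 5, and measured 25.5, 0, 1.40 and 3.24 CPM in KPC IL6KO 5 to 8. Cdh1, the epithelial adhesion molecule and the most abundant of the list, measured 326, 102, 297 and 236 CPM in no tumor 5 to 8 and 495, 292, 251 and 263 CPM in KPC IL6KO 5 to 8, with a log2 FC of 0.44 (SE 0.38). Misp (chromosome 10, 79820989 to 79830490), an actin-binding protein of dividing epithelial cells, measured 1.31, 0.969, 0.953 and 0.822 CPM in no tumor 5 to 8 and 47.7, 3.15, 2.73 and 19.6 CPM in KPC IL6KO 5 to 8. For Misp the log2 FC was 4.18 (SE 0.95), and 3.07 without KPC IL6KO 5. Pigr (chromosome 1, 130826684 to 130852249), which carries antibodies across epithelia, measured 1.02, 0.208, 0.302 and 1.33 CPM in no tumor 5 to 8 and 36.4, 5.66, 3.65 and 12.6 CPM in KPC IL6KO 5 to 8. For Pigr the log2 FC was 4.34 (SE 0.92), and 3.34 without KPC IL6KO 5. Both genes were highest in KPC IL6KO 5, the library with the seminal vesicle transcripts, and without overlap in all 4. Of 13 mesothelium genes 4 were higher and 0 lower at an unadjusted p under 0.05 (median log2 FC 0.71). Msln, which encodes the mesothelial surface protein mesothelin, measured 5.98, 21.8, 5.53 and 32.7 CPM in no tumor 5 to 8 and 546, 8.61, 53.8 and 162 CPM in KPC IL6KO 5 to 8, with a log2 FC of 3.54 (SE 1.09) and 2.18 without KPC IL6KO 5. Of 28 exocrine pancreas genes only Cela1 was in the table, with a log2 FC of 1.18 (SE 0.53) (0.50 without KPC IL6KO 5). What part of these values came from tumor cells or from adjoining epithelium was not tested.

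Adipocyte genes overlapped between the groups. Of 18 adipocyte genes 2 had a higher and 16 a lower fitted level, the median log2 FC was -0.34, and 0 reached an unadjusted p under 0.05 in either direction. Their summed level was 9053, 51254, 3568 and 16530 CPM in no tumor 5 to 8 and 7067, 10877, 30201 and 13633 CPM in KPC IL6KO 5 to 8. No tumor 6 was the highest and no tumor 7 the lowest of all 8 libraries, and the direction of the list rested on no tumor 6, without which its median was 0.71. For Adipoq the log2 FC was -0.45 (SE 0.77), and 0.63 without no tumor 6. Lep, which encodes the satiety hormone leptin, measured 162, 948, 70.2 and 224 CPM in no tumor 5 to 8 and 25.3, 82.4, 423 and 69.7 CPM in KPC IL6KO 5 to 8. It was the lowest of the list with a log2 FC of -1.22 (SE 1.10), with KPC IL6KO 7 above 3 of the 4 no tumor libraries, and it was -2.60 without that library and -0.02 without no tumor 6. Fabp4, the fatty acid binding protein of adipocytes and the most abundant of the list, had a log2 FC of -0.24 (SE 0.85) (0.78 without no tumor 6), and Plin4, a lipid droplet coat protein, had 0.33 (SE 0.85) (1.48 without no tumor 6).

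In the lists of lipid metabolism few genes reached an unadjusted p under 0.05. Among all genes 8.17% were higher and 1.17% lower at that p. Of 20 lipolysis genes 1 was higher and 0 lower at an unadjusted p under 0.05 (median log2 FC -0.30). That gene, Hilpda, an inhibitor of adipose triglyceride lipase, measured 6.55, 6.85, 3.88 and 9.94 CPM in no tumor 5 to 8 and 43.5, 7.61, 11.7 and 66.1 CPM in KPC IL6KO 5 to 8, with a log2 FC of 2.24 (SE 0.77) (1.62 without KPC IL6KO 8) and a quasi-likelihood FDR of 0.424. Cidec, which fuses lipid droplets, had -0.34 (SE 0.87) (0.93 without no tumor 6), and Npr3, the clearance receptor for natriuretic peptides, -1.07 (SE 0.95) (0.22 without no tumor 6). Of 21 genes for fatty acid and triglyceride synthesis 20 had a lower and 1 a higher fitted level (median log2 FC -0.53), and 0 reached an unadjusted p under 0.05. Scd1, a stearoyl-CoA desaturase, measured 4250, 28714, 1866 and 4477 CPM in no tumor 5 to 8 and 1721, 5257, 15157 and 4076 CPM in KPC IL6KO 5 to 8. The levels spanned over 8 times within each group, and for Scd1 the log2 FC was -0.58 (SE 1.12) (0.89 without no tumor 6). Thrsp, a regulator of lipogenesis, had -1.31 (SE 0.93) (0.02 without no tumor 6) and Elovl5, a fatty acid elongase, 0.30 (SE 0.20). Fatty acid oxidation genes had a median log2 FC of -0.09 with 0 of 19 at an unadjusted p under 0.05. Thermogenic genes had a median of -0.21 with 1 of 13 higher and 0 lower at an unadjusted p under 0.05. That gene was Pdk4, which restrains glucose oxidation, at 8.92, 34.2, 3.79 and 22.7 CPM in no tumor 5 to 8 and 59.4, 23.1, 60.3 and 142 CPM in KPC IL6KO 5 to 8 and a log2 FC of 2.03 (SE 0.88). Adrb3, the adrenergic receptor of adipocytes, had -0.21 (SE 0.86) (1.21 without no tumor 6). As in the adipocyte list, these directions rested on no tumor 6. Without it the median was 0.92 for lipolysis, 0.09 for synthesis, 0.35 for oxidation and 0.71 for thermogenic genes.

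Of 17 glucocorticoid and fasting genes 3 were higher and 0 lower at an unadjusted p under 0.05 (median log2 FC 0.61). Among all genes 8.17% were higher and 1.17% lower at that p. Mt2, which encodes a metallothionein, measured 73.3, 60.3, 69.6 and 58.6 CPM in no tumor 5 to 8 and 222, 133, 302 and 474 CPM in KPC IL6KO 5 to 8, without overlap, for a log2 FC of 2.11 (SE 0.57) (quasi-likelihood FDR 0.394, likelihood ratio FDR 0.0350). Fkbp5, a chaperone induced by glucocorticoids and the most abundant of the list, had -0.16 (SE 0.51) and Klf15, a fasting-induced factor, -0.54 (SE 0.43) (-0.02 without no tumor 6), both with overlapping groups. Of 18 circadian clock genes 1 was higher and 3 lower at an unadjusted p under 0.05 (median log2 FC -0.36, and -0.16 without no tumor 6). Dbp, a clock output factor, measured 24.6, 135, 27.6 and 70.9 CPM in no tumor 5 to 8 and 12.2, 20.3, 20.9 and 40.1 CPM in KPC IL6KO 5 to 8. Its log2 FC was -1.46 (SE 0.54) (-0.81 without no tumor 6). Tef, a factor of the same family, measured 148, 338, 116 and 204 CPM in no tumor 5 to 8 and 72.7, 118, 138 and 142 CPM in KPC IL6KO 5 to 8, with -0.78 (SE 0.32) (-0.41 without no tumor 6). Nfil3, a repressor that binds the same DNA sites as both, measured 12.6, 4.64, 9.997 and 3.65 CPM in no tumor 5 to 8 and 26.3, 12.04, 12.1 and 32.6 CPM in KPC IL6KO 5 to 8, with 1.43 (SE 0.57). In these 3 genes the groups overlapped and the quasi-likelihood FDR was 0.450, 0.493 and 0.492. The hour of dissection of each mouse was not given in the sources used here.

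Of 10 smooth muscle genes 3 had a higher and 7 a lower fitted level (median log2 FC -0.12, from -1.06 without KPC IL6KO 8 to 0.73 without no tumor 8), and 0 reached an unadjusted p under 0.05. Myh11, the smooth muscle myosin, measured 187, 1104, 195 and 2334 CPM in no tumor 5 to 8 and 948, 242, 117 and 2225 CPM in KPC IL6KO 5 to 8. For Myh11 the log2 FC was -0.11 (SE 0.96), and -1.13 without KPC IL6KO 8. Actg2, an actin of visceral muscle, had -1.14 (SE 1.01) (-2.31 without KPC IL6KO 6). Of 4 red blood cell genes 0 reached an unadjusted p under 0.05 (median 0.07), with Alas2, the enzyme of erythroid heme synthesis, at 0.23 (SE 0.53).

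Among genes without overlap and with a mean log2 CPM not under 1, the lowest log2 FC were those of Tmem56, Rgsl1 and Epb4.1l3. Tmem56, a membrane protein, measured 36.8, 18.6, 29.4 and 41.6 CPM in no tumor 5 to 8 and 2.06, 18.002, 16.3 and 10.8 CPM in KPC IL6KO 5 to 8. Its log2 FC was -1.42 (SE 0.53). KPC IL6KO 6 lay just below the lowest no tumor library. Epb4.1l3, a membrane skeleton protein, measured 26.3, 15.2, 27.6 and 25.5 CPM in no tumor 5 to 8 and 3.75, 12.996, 13.4 and 10.1 CPM in KPC IL6KO 5 to 8, with -1.23 (SE 0.44). Txnrd3, a thioredoxin and glutathione reductase found mainly in the male germ line, measured 63.4, 45.1, 52.5 and 96.5 CPM in no tumor 5 to 8 and 14.2, 37.96, 38.3 and 22.8 CPM in KPC IL6KO 5 to 8, with -1.19 (SE 0.38). Sccpdh, an oxidoreductase-like gene, measured 81.3, 71.8, 69.5 and 124 CPM in no tumor 5 to 8 and 20.3, 66.3, 49.7 and 38.7 CPM in KPC IL6KO 5 to 8, with -0.99 (SE 0.35). In all 4 of these genes KPC IL6KO 5 was the lowest library, and it was also the library with the lowest share of epididymis counts. The other 6 of the 10 lowest were Rgsl1 (log2 FC -1.39) and, between -1.20 and -0.93, Lrrc4, Tmem53, Kank4, Lrrc29 and Zfp558. The quasi-likelihood FDR of these 10 genes lay between 0.401 and 0.653, and none was called by the likelihood ratio test or DESeq2.

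The levels of genes of adjoining tissue differed widely within the groups, and the seminal vesicle list alone followed 1 library, KPC IL6KO 5. Of 77 epididymis genes 8 had a higher and 69 a lower fitted level (median log2 FC -0.92, -2.68 without KPC IL6KO 6 and -0.41 without no tumor 5), and 1 was lower at an unadjusted p under 0.05. Gpx5, a glutathione peroxidase secreted by the caput epididymis, measured 39292, 52.2, 34256 and 4.81 CPM in no tumor 5 to 8 and 85.8, 54957, 4.69 and 5.65 CPM in KPC IL6KO 5 to 8, so that it was above 1000 CPM in no tumor 5, no tumor 7 and KPC IL6KO 6. Crisp1, a secreted epididymal protein, measured 1305, 12023, 5754 and 14517 CPM in no tumor 5 to 8 and 621, 414, 12122 and 9432 CPM in KPC IL6KO 5 to 8, with its highest levels in other libraries than Gpx5. For Crisp1 the log2 FC was -0.57 (SE 1.26) (-1.31 without KPC IL6KO 7). Adam7, a sperm-binding protein of the epididymis, measured 15217, 1412, 11887 and 2624 CPM in no tumor 5 to 8 and 20.2, 15189, 2862 and 689 CPM in KPC IL6KO 5 to 8. The seminal vesicle genes Svs2, Svs5 and Svs4 measured 24848, 23465 and 20006 CPM in KPC IL6KO 5 and at most 6.41 CPM in the other 7 libraries. Among the 9 measured genes of that list, 3 were called higher by the likelihood ratio test, and the list median of 11.37 became 0.38 without KPC IL6KO 5. Testis and sperm genes had a median log2 FC of -1.82 (-2.97 without KPC IL6KO 7 and -0.90 without no tumor 8) with 0 of 18 at an unadjusted p under 0.05, and Prm2, a sperm protamine, measured 45.4, 261, 264 and 666 CPM in no tumor 5 to 8 and 0.442, 52.9, 276 and 66.5 CPM in KPC IL6KO 5 to 8. All 23 skeletal muscle genes had a higher fitted level (median log2 FC 3.44), 14 at an unadjusted p under 0.05 and 0 called by the likelihood ratio test. The shares among all genes were 8.17% and 1.23%. Myh4, the myosin of fast muscle fibers, measured 0, 0.450, 0.0232 and 48.4 CPM in no tumor 5 to 8 and 2.87, 82.02, 177 and 811 CPM in KPC IL6KO 5 to 8, highest in KPC IL6KO 8, and without that library the list median was 1.30.

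The 209 genes called higher by the likelihood ratio test were looked at by library. As they were called on these same libraries, their order is a description and no test. Of these, 3 belonged to the lists of adjoining tissue, 38 to other lists and 168 to none. Those in no list include Tgm4, 9530053A07Rik, Ahsg and Apoa1, given above, and Mybpc2, a fast skeletal muscle gene. Of the 209, 69 did not overlap between groups, and 112 had a mean log2 CPM not under 1. Genes under that mean were left out of the ranking by highest log2 FC. Among those left out were Clca3b (mean 0.0119 CPM in no tumor and 13.3 CPM in KPC IL6KO) and Nkx2-3 (0.00790 and 15.5 CPM), both without overlap. KPC IL6KO 6 was the lowest of its group for 172 of the 209 genes (82.3%), against 27.4% of all genes. It lay above all no tumor libraries for 82 of them (39.2%), whereas KPC IL6KO 5 did so for 204, KPC IL6KO 7 for 195 and KPC IL6KO 8 for 204. The highest of the group was KPC IL6KO 5 for 112 genes and KPC IL6KO 8 for 87. Over all genes the shares above all no tumor libraries were 29.4%, 16.4%, 14.9% and 22.2% for KPC IL6KO 5 to 8.

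**Figure D5:**
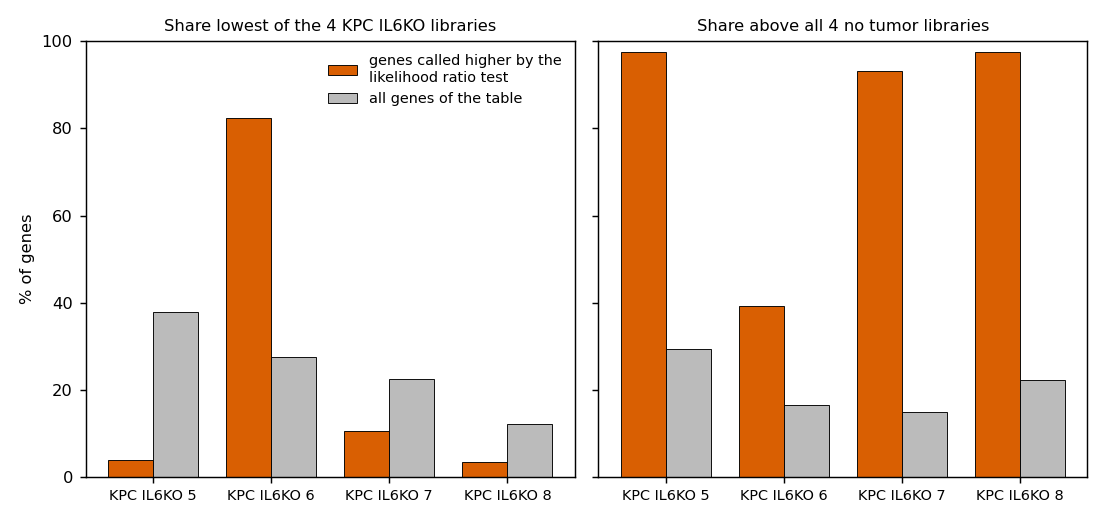
Share of genes (%) for which each KPC IL6KO library was the lowest of its group (left) and lay above all no tumor libraries (right), for the 209 genes called higher by the likelihood ratio test and for all 16962 genes. KPC IL6KO 6 was the lowest for 82.3% of the called genes.

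The difference between tumor groups was tested in the same fit, and the KPC values share their comparison with KPC IL6KO. No gene was called between KPC and KPC IL6KO by the quasi-likelihood test (0%, smallest FDR 0.535), with 132 genes higher in KPC (0.778%) and 930 lower (5.48%) at an unadjusted p under 0.05. The likelihood ratio test called 7 higher and 59 lower in KPC, and DESeq2 19 and 106. Of the 209 genes called higher in KPC IL6KO relative to no tumor, 25 had an unadjusted p under 0.05 between the tumor groups, 3 of them higher in KPC and 22 lower. Il6 measured 3.97, 5.30, 2.19 and 2.02 CPM in KPC 5 to 8, and its log2 FC of KPC relative to KPC IL6KO was 0.47 (SE 1.12). Saa3 measured 308, 282, 199 and 140.1 CPM and Socs3 91.2, 54.1, 41.9 and 45.1 CPM in KPC 5 to 8, within the range of KPC IL6KO for 4 of 4 and 3 of 4 libraries, with log2 FC of -0.12 (SE 0.98) and 0.29 (SE 0.56). Adipocyte genes had a median log2 FC of -1.36 in KPC relative to KPC IL6KO, with 6 of 18 lower in KPC at an unadjusted p under 0.05. By the same count 8 of 10 smooth muscle genes (median -2.55), 22 of 23 skeletal muscle genes (median -5.75) and 9 of 9 seminal vesicle genes (median -11.5) were lower in KPC, and the part of these tissues in the adipocyte values was not tested. Lep measured 10.7, 76.1, 13.8 and 4.26 CPM in KPC 5 to 8 (log2 FC -2.52 (SE 1.14), FDR 0.797) and Adrb3 4.99, 31.6, 39.01 and 20.03 CPM (log2 FC -3.29 (SE 0.94), FDR 0.664). Serpina3m, with 346, 65.1, 25.4 and 23.9 CPM, had a log2 FC of 2.42 (SE 0.89), and Jchain, with 2.28, 2.64, 5.26 and 3.71 CPM, one of -2.92 (SE 0.66) (FDR 0.678 and 0.558). None of these differences passed the adjustment in the quasi-likelihood test, whereas Jchain had an FDR of 0.0120 in the likelihood ratio test. The interval of about 2 SE left room for several-fold differences either way in Saa3 and Il6.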

How the data were processed

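Epididymal fat was sequenced with 1 library per mouse and paired reads of 75 bases. The labels name the TruSeq RNA Access kit and the methods another, and the stated minimum RNA integrity also differs. The authors aligned reads with STAR to mm10 and deposited, for each gene, the count of uniquely mapped reads from featureCounts 1.5.1, without normalization and without low-count genes. The table holds 16962 genes, and the 12 libraries sum to 26306377 to 56308545 counts. The floor of 3 counts covers counting error only.

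Here the counts were normalized by TMM, and no tumor, KPC and KPC IL6KO (4 libraries each) were fitted together by the quasi-likelihood test of edgeR 4.0.16 (R 4.3.3, limma 3.58.1) without a replicate block. A gene was called where its FDR (Benjamini-Hochberg, over all genes) did not exceed 0.05 and its FC reached 1.5, and filterByExpr removed 0 genes. Positions are those of GRCm38 for 16302 genes. The pipeline was tested on simulated data. Alternatives were the likelihood ratio test, DESeq2 1.42.0, the newer quasi-likelihood form, RLE normalization, no filter or a minimum of 10 counts per library, a fit of the compared groups alone, a replicate block, Gpx5 and Crisp1 as covariates, genes of adjoining tissue left out, only libraries under 1000 CPM of Gpx5, and leaving out each library in turn. Figures were drawn with Python 3.11.15 and matplotlib 3.10.9.

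The libraries, the 30 gene lists and the tests were chosen with earlier results of these data known. Named genes, outside adjoining tissue and with mean log2 CPM not under 1, were the 10 highest and 10 lowest log2 FC without overlap, the 10 smallest p, a fixed set (Il6, Il6ra, Il6st, Stat3, Socs3, Adipoq, Lep, Gpx5 and Crisp1), and the most abundant, highest and lowest member of each list (highest and lowest among members with a mean of at least 1 CPM). Of each list kept apart the 3 most abundant genes were added. Some of the genes so chosen are not reported here. Quadriceps libraries were not used here.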

Additional observations from a re-analysis of the deposited data

Results flagged for a closer look

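Within a group of 4 mice, levels were compared as the logarithm of CPM plus 0.1. The gap of a library to the nearest other library was divided by the range of the group on that scale. A library was singled out where this ratio exceeded the 95% critical value of Dixon's test. There were 286 groups of named genes and list sums, some of them at the floor and so not looked at, and 9 flags. Chance alone flags about 1 in 20 independent groups. These groups share libraries and genes, so the number of flags cannot be set against that rate. No tumor 6 stood apart in Epb4.1l3 (15.2 CPM, the others 25.5 to 27.6), in Krt18, a keratin of simple epithelia (98.5 CPM, the others 325 to 398), and in Klf15 (106 CPM, the others 36.2 to 42.3). It was also the library with the highest adipocyte sum. KPC IL6KO 6 stood apart in Ctf1 (16.01 CPM, the others 4.49 to 5.55), Gpnmb (147.9 CPM, the others 19.7 to 26.8), Klrb1c (481 CPM, the others 0.886 to 1.25) and the summed level of the T and NK cell list (495 CPM, the others 20.5 to 28.5), which Klrb1c made up almost alone. No tumor 8 stood apart in Trem1 (0.427 CPM, the others 0.0692 to 0.0819) and no tumor 5 in Ccna2 (10.5 CPM, the others 5.56 to 6.05).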

How the results depend on the processing

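The coefficient of variation between mice was 63.5%, and the part of depth in the results was not tested. Relative to no tumor, 0 genes were called in KPC IL6KO under each alternative that kept the quasi-likelihood test and all 4 KPC IL6KO libraries. The likelihood ratio test called 209 higher and 0 lower, and DESeq2 282 and 4. Leaving out 1 library gave 0 to 12 higher and 0 to 1 lower genes, the larger counts without KPC IL6KO 6. Genes with an unadjusted p under 0.05 (1584 in the reported fit) numbered 928 with only the groups compared, 416 with Gpx5 and Crisp1 as covariates, 759 with only libraries under 1000 CPM of Gpx5, and 802 to 3393 when 1 library was left out (1006 without no tumor 7, 2383 without KPC IL6KO 7). Between KPC and KPC IL6KO the likelihood ratio test called 7 genes higher and 59 lower in KPC, DESeq2 19 and 106, the newer quasi-likelihood form 1 higher and the covariates 2 higher, with 1650 genes at an unadjusted p under 0.05 under the covariates and 726 to 2273 when 1 library was left out, against 1062. The causes of these shifts were not tested. No library of KPC was under 1000 CPM of Gpx5, so that comparison had no value in that setting.

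Replicate numbers name different mice. With the numbers 5 to 8 as a replicate block, 0 genes were called and 1931 had an unadjusted p under 0.05. Same-numbered libraries correlated at 0.248, -0.539, -0.0373 and 0.580, so the numbers do not pair the mice. The block turned the sign of these log2 FC: Fabp4 0.19, Teddm1b -6.15, Tnnt1 -0.12, Myh11 0.0341, Cidec 0.10, Adrb3 0.0230.

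Of 2559 alternative values of the 113 named genes, 2418 kept their sign and their side of the threshold, 64 passed it and 77 changed sign. As the quasi-likelihood test called no gene in the reported fit, these counts cannot show how stable called genes are. Svs2, which changed sign, was called by the likelihood ratio test. With DESeq2 the values that turned were Kdr -0.00228, C2 -0.00740, with RLE Kdr -0.00217, C2 -0.00734, and with at least 10 counts C2 -0.000467. With the covariates they were Crisp1 6.51e-05, Plin4 -0.55, Svs2 -4.39, Svs4 -7.13, Gata2 -0.35, Kdr -0.61, Smtn -0.20, Etfdh -0.13, Adrb3 0.25, C2 -0.53, Fkbp5 0.0992, Ccne1 -0.0614. With only libraries under 1000 CPM of Gpx5 they were Gpx5 0.20, Plin4 -0.18, Kdr -0.39, Smtn -0.25, Alas2 -0.15, C2 -0.58, Fkbp5 0.00782. With 1 library left out the ranges of the genes that turned were Adipoq -1.10 to 0.63, Adrb3 -0.86 to 1.21, Alas2 -0.21 to 0.62, C2 -0.46 to 1.06, Ccne1 -0.0902 to 0.26, Ceacam10 -0.0712 to 2.35, Cidec -0.98 to 0.93, Cxcl9 -1.42 to 0.16, Ehhadh -0.46 to 0.11, Fabp4 -0.73 to 0.78, Fkbp5 -0.69 to 0.14, Gpx5 -9.16 to 0.27, Kdr -0.24 to 0.68, Klrb1c -7.84 to 0.13, Myh11 -1.13 to 0.83, Npr3 -2.26 to 0.22, Odf2l -0.0867 to 0.20, Orm1 -2.04 to 0.22, Plin4 -0.29 to 1.48, Scd1 -1.44 to 0.89, Smtn -0.26 to 0.94, Teddm1b -8.15 to 0.95, Thrsp -1.98 to 0.0244, Tnnt1 -0.22 to 0.42. Of 686 alternative medians of the 30 lists, 669 moved by less than the spread used and 17 by more, the farthest being the seminal vesicle list, at -4.39 with the covariates and 0.38 without KPC IL6KO 5 against 11.37. The epididymis list, at -2.68 without KPC IL6KO 6, moved by less than its spread.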
